A study of Mus musculus with 7 samples.

Results

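The genes described here are 10 of the interleukin-1 (IL-1) family and the inflammasome, taken from a deposited expression table of 40743 genes by their symbols: Il1a, Il1b, Il18, Il1rn, Il1r2, Il1rap, Nlrp3, Pycard, Casp1 and Gsdmd. The libraries came from retinal microglia (rMG), the resident macrophages of the retina, of mice with the genotype Irf8-/- Cx3cr1GFP/+ on a C57BL/6J background (Irf8 KO). 3 libraries were from unlasered mice and 4 from mice whose eyes had received laser spots, the laser-induced choroidal neovascularisation (CNV) model, studied 7 days after the injury. The study describes the mice of its steady-state sequencing as adult, and the sources used here give no exact age for these libraries. Both groups carried the Irf8 deletion and the Cx3cr1 reporter allele, which marks microglia with GFP and leaves them 1 functional copy of Cx3cr1, so that the comparison is of laser injury among Irf8 KO rMG and not of genotypes. Each library pooled sorted cells of 3 to 4 mice, about 10000 cells on average, gated as CD45 low, CD11b+, GFP+, Ly6C- and Ly6G-. For the lasered mice the central 70% of the retina was sorted, without the periphery, so that injury and retinal region cannot be told apart.

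IL-1 cytokines are among the earliest signals of sterile and microbial injury. Il1a and Il1b encode ligands of the same receptor, Il1r1, which needs the accessory chain Il1rap to signal to NF-kB, whereas Il1rn encodes a secreted antagonist that occupies Il1r1 without signalling and Il1r2 a decoy receptor that binds ligand without signalling. IL-1 beta and IL-18 are made as inactive precursors. They are cut by caspase-1 (Casp1), which is activated in inflammasomes, complexes of a sensor such as NLRP3 with the adaptor ASC (Pycard), and caspase-1 also frees the pore-forming part of gasdermin D (Gsdmd). RNA levels show the supply of these transcripts and neither cleavage nor release. In the retina, microglia are regarded as a source of IL-1 beta after injury.

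Values are CPM, the reads of a gene scaled to the same total in every library, with 20427558 to 36022954 reads per unlasered library and 37133297 to 45919042 per lasered library. 3 reads, taken as the lowest level that a library can show, corresponded to 0.0653 to 0.147 CPM, a limit that covers counting error only. Irf8 itself, listed jointly with Gm20388, whose span covers it, was at 489 to 530 CPM in the unlasered and at 463 to 582 CPM in the lasered libraries. The targeted gene thus had reads in every library, and the groups are given as labelled Irf8 KO. Without wild-type libraries, whether this level was reduced cannot be judged. A deletion that leaves the rest of the transcript would not be seen in a gene total. The summed level of 10 microglia marker genes was 27292 to 32271 CPM and 25501 to 33021 CPM in these groups. Rod photoreceptor RNA stood higher in the unlasered libraries, with 15 marker genes at 2251 to 20191 CPM against 321 to 1020 CPM in the lasered libraries, and its part in the differences below was not tested. In bulk RNA, fewer cells of a type and less RNA per cell cannot be told apart.

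Of the 10 genes, 3 rose after laser injury and 0 fell at an adjusted p under 0.05 (limma on log2(CPM + 1) over 17496 genes, Benjamini-Hochberg). They were the ligand gene Il1a, the antagonist gene Il1rn and the adaptor gene Pycard. Of all genes tested, 6.93% were called in either direction, 3.86% higher and 3.07% lower. At an unadjusted p under 0.05 the count was 5 higher and 0 lower, against 22.7% of all genes in either direction. edgeR on the recovered reads also called 3 higher and 0 lower, with a background of 7.24%, and DESeq2 called 5 higher and 0 lower, with a background of 13.2%. Both counts of 5 include Il1r2, whose direction was fixed by the filter, as given below. All 3 calls lay near the threshold and none held in every alternative fit, as given gene by gene below.

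In 6 of the 10 genes the lowest lasered library stood above the highest unlasered library, which was so for 10.4% of all genes tested, with 10.7% in the opposite direction and 21.0% in either. They were Il1a, Il1rn, Il1r2, Pycard, Gsdmd and, by a narrow margin, Il18. All 10 genes passed the filter of 1 CPM in 3 libraries, but Il1r2 passed through the lasered libraries alone (0 of 3 unlasered and 3 of 4 lasered libraries at 1 CPM), so that its direction was fixed by the filter. The median difference of the 10 genes was 0.34 on the log2(CPM + 1) scale and that of all genes tested was -0.01.

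**Figure D1:**
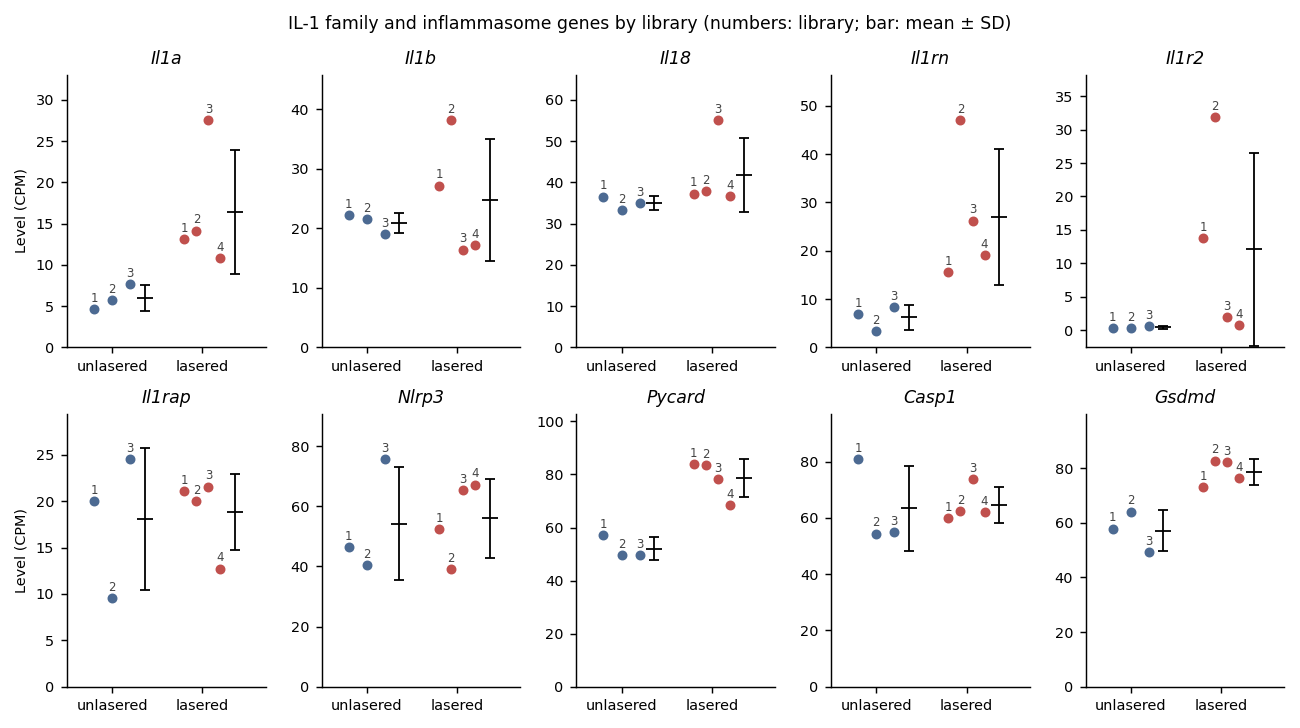
Level of each of the 10 genes in CPM (linear axis) in the 3 unlasered and 4 lasered libraries. Points are libraries with their number, and the bar beside each group is the mean with SD. The groups do not overlap for Il1a, Il1rn, Il1r2, Pycard, Gsdmd and Il18, while Il1b, Il1rap, Nlrp3 and Casp1 overlap.

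Promoter sequence is shown for the 3 genes that rose and, for comparison, for Il1b, which lies close to Il1a on chromosome 2 and was not called. Each line is the 250 bases before the start site in RefSeq (GRCm38.p6), 5' to 3' on the strand of the gene, and capitals mark the matches to the motifs named afterwards. The windows are chr2:129309973-129310222 (minus strand) for Il1a, chr2:24336610-24336859 (plus strand, the most upstream of the start sites listed) for Il1rn, chr7:127993868-127994117 (minus strand) for Pycard and chr2:129371140-129371389 (minus strand) for Il1b.
Il1a: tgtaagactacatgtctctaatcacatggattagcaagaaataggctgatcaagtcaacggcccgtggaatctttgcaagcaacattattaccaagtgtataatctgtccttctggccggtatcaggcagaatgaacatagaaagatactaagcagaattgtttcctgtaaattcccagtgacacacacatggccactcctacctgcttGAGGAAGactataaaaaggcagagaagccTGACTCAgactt
Il1rn: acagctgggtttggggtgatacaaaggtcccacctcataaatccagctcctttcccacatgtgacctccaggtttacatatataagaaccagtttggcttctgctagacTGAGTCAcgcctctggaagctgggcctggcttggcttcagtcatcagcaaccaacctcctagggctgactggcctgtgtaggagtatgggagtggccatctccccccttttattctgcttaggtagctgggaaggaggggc
Pycard: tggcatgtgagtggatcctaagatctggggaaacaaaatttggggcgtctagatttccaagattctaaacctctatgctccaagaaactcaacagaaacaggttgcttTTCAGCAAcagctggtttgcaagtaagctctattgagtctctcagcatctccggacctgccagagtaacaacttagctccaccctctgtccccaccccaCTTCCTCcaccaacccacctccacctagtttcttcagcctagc
Il1b: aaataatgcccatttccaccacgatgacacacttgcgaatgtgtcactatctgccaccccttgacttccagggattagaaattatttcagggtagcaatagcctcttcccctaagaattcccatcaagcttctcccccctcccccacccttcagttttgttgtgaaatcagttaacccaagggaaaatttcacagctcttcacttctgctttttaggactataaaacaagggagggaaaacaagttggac

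The motifs searched on both strands were AP-1 (TGANTCA), the C/EBP motif (TTGCNNAA), PU.1 (GAGGAAG), the interferon regulatory factor (IRF) pair, the PU.1-IRF composite and the kappaB consensus. The PU.1 letters can overlap the composite in part. Among all 32851 promoter windows, 6.75% held the AP-1 letters, 9.56% C/EBP, 10.6% PU.1, 2.98% the IRF pair, 2.3% the composite and 3.9% kappaB. In the Il1a window AP-1 letters stood at -12 to -6 and PU.1 letters at -41 to -35, counted back from the start site. The Il1rn window held AP-1 letters at -141 to -135. The Pycard window held C/EBP letters at -142 to -135 and PU.1 letters at -43 to -37, both on the opposite strand. No motif matched in the Il1b window. Of the 10 genes, 9 had a promoter in the reference, with 12 windows in all. Of the windows not printed, only those of Nlrp3 held a match, with kappaB in the window that ends at the upstream start and PU.1 letters at 2 places in the other, while neither IRF motif matched in any of the 12 windows. These matches are letters in sequence and not shown to be sites.

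Il1a (ENSMUSG00000027399, chromosome 2, 129299610 to 129309972), whose product is active without caspase-1, was measured at 4.60, 5.78 and 7.72 CPM in unlasered libraries 1 to 3. In lasered libraries 1 to 4 it was measured at 13.1, 14.1, 27.5 and 10.9 CPM. Every lasered library stood above every unlasered library, and lasered library 3 was the highest. The means were 6.03 ± 1.57 CPM (SD, n = 3) and 16.4 ± 7.55 CPM (SD, n = 4), 2.72-fold apart, and Il1a rose by 1.25 ± 0.31 (SE) on the log2(CPM + 1) scale (limma adjusted p = 0.0446). The adjusted p in the 15 alternative fits was 0.000966 to 0.189 and passed the threshold in 6 of them, always with a positive difference. Without 1 library, the call held without unlasered library 3 (0.0475) and lasered library 4 (0.0472), and it was lost without unlasered libraries 1 (0.121) or 2 (0.091) and lasered libraries 1 (0.088), 2 (0.102) or 3 (0.0696).

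Gm14023, a processed transcript on the other strand, shares 222 exonic bases with Il1a and moved with it. Its level was 6.17, 9.17 and 8.63 CPM in the unlasered and 15.8, 17.6, 28.03 and 14.8 CPM in the lasered libraries, and it rose by 1.13 ± 0.24 (SE; limma adjusted p = 0.0304). The call held in 8 of 15 alternative fits, with adjusted p-values of 0.000338 to 0.160. Il1a stood at 0.631 to 0.983 of the Gm14023 level in all 7 libraries. The library kit keeps no strand, so reads from Il1a and from Gm14023 on shared stretches cannot be told apart. The shared bases are 11.2% of the Il1a exons and 12.5% of the Gm14023 exons. The part of shared reads in the near-equal levels was not tested. The other genes with an exonic partner on the opposite strand showed no such parallel: Il1bos lay at 0.0539 to 1.64 CPM beside Il1b, while Gm20319 (beside Il1rap) and Gm45205 (beside Pycard) were not called, with differences of -0.29 and 0.04 on the log2(CPM + 1) scale.

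Il1b (ENSMUSG00000027398, chromosome 2, 129364570 to 129371139) showed no difference that passed the test. Its level was 22.2, 21.5 and 19.0 CPM in the unlasered libraries and 27.2, 38.2, 16.4 and 17.2 CPM in the lasered libraries. Lasered libraries 1 and 2 lay above and lasered libraries 3 and 4 below all unlasered libraries. The means were 20.9 ± 1.68 CPM and 24.7 ± 10.2 CPM (SD, n = 3 and 4), and the difference was 0.15 ± 0.28 (SE; limma adjusted p = 0.793), with a 95% interval of -0.47 to 0.78 on the log2(CPM + 1) scale. The interval covers a change of either sign, so neither a rise nor equality was shown. The spread between lasered libraries was wider than between unlasered libraries, with a highest level 2.32 times the lowest against 1.17 times.

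Among 10279 genes with a mean of at least 10 CPM, the 5 whose log2(CPM + 1) followed Il1b most closely over the 7 libraries were H2-Ob (Pearson r = 0.969), Nlrc4 (0.963), Psmb9 (0.956), S100a11 (0.950) and Slx4ip (0.950). H2-Ob encodes an MHC class II related chain, Nlrc4 an inflammasome sensor and Psmb9 a subunit of the immunoproteasome. These r values are the highest of 10279 over 7 points that share libraries and depth, and they are a description only. H2-Ob was at 27.3 CPM in lasered library 2 and at 6.69 and 5.98 CPM in lasered libraries 3 and 4, the same split of lasered libraries as for Il1b. It was picked by its r with Il1b over these libraries, so the shared split is not a separate result.

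Il18 (ENSMUSG00000039217, chromosome 9, 50554827 to 50581840) encodes the other cytokine precursor cut by caspase-1. Its level was 36.6, 33.3 and 35.1 CPM in the unlasered and 37.3, 37.8, 55.1 and 36.7 CPM in the lasered libraries. The groups did not overlap, but 3 of the lasered libraries lay within 2 CPM of the highest unlasered library. The means were 35.0 ± 1.63 and 41.7 ± 8.93 CPM, and the difference of 0.23 ± 0.17 (SE) did not pass the test (limma adjusted p = 0.480). Il18bp, whose secreted product binds and neutralises IL-18, was at 20.9 to 42.5 CPM and 28.2 to 59.2 CPM in the 2 groups, with a difference of 0.38 ± 0.30 (SE; limma adjusted p = 0.502). The ratio of Il18bp to Il18 CPM was 0.595 to 1.16 in the unlasered and 0.576 to 1.59 in the lasered libraries, so the groups overlapped.

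Il1rn (ENSMUSG00000026981, chromosome 2, 24336853 to 24351494), the receptor antagonist gene, had the largest difference among the 3 genes called. Its level was 6.85, 3.42 and 8.36 CPM in the unlasered and 15.6, 47.0, 26.2 and 19.1 CPM in the lasered libraries. Every lasered library stood above every unlasered library. The means were 6.21 ± 2.53 CPM (SD, n = 3) and 27.0 ± 14.1 CPM (SD, n = 4), 4.35-fold apart, and Il1rn rose by 1.90 ± 0.38 (SE; limma adjusted p = 0.0248). It was called in 9 of 15 alternative fits, with adjusted p-values of 8.04e-06 to 0.126. The call was lost without unlasered library 2 (0.0549) and without lasered libraries 2 (0.0569) or 3 (0.0698), and held without each of the other 4 libraries.

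Set against the ligands within each library, the antagonist separated the groups by its ratio to Il1b. The ratio of Il1rn to Il1b CPM was 0.308, 0.159 and 0.439 in the unlasered and 0.573, 1.23, 1.60 and 1.11 in the lasered libraries, with means of 0.302 ± 0.140 and 1.13 ± 0.423 (SD). The groups did not overlap. Per kilobase of exon the ratio was 0.0548 to 0.151 and 0.197 to 0.550, so that Il1b was the higher by this measure in all 7 libraries. The lengths merge all annotated exons, 5535 bases for Il1rn and 1907 for Il1b. A shorter main transcript of Il1rn would raise the ratio, so which transcript was more abundant in the lasered libraries is not settled. The ratio of Il1a to Il1b CPM was 0.207, 0.269 and 0.406 in the unlasered and 0.483, 0.370, 1.68 and 0.632 in the lasered libraries, and overlapped through lasered library 2. The ratio of Il1rn to Il1a CPM overlapped widely, at 0.591 to 1.49 and 0.953 to 3.33. No test was run on these ratios.

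**Figure D2:**
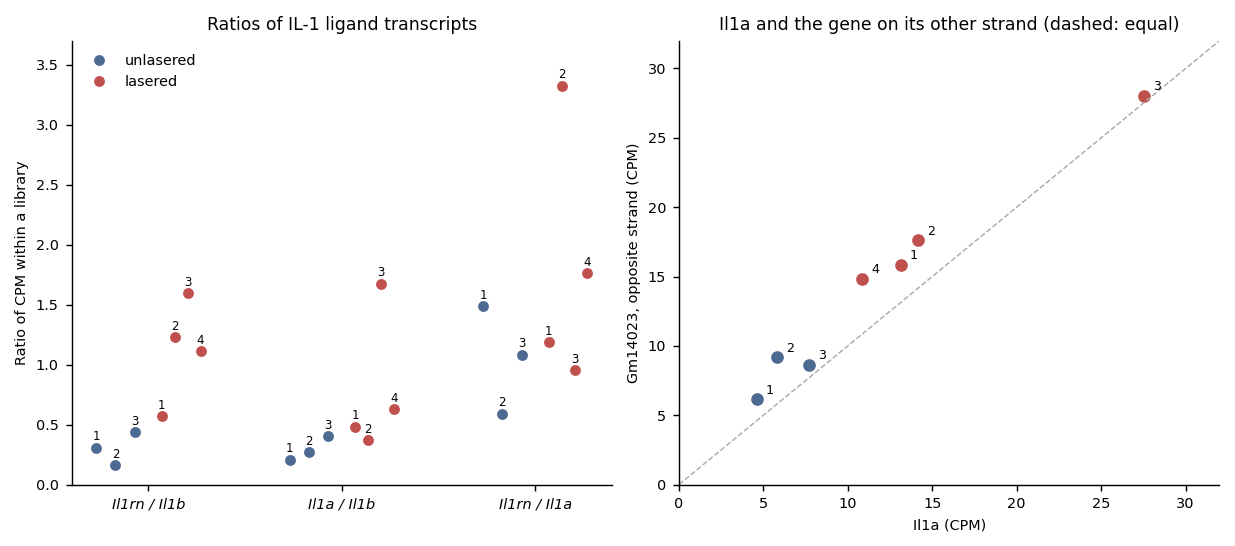
Left, ratios of CPM between IL-1 ligand genes within each library (linear axis). Right, CPM of Gm14023 against CPM of Il1a, with the dashed line marking equal levels. Points are the 3 unlasered and 4 lasered libraries with their number. Il1rn over Il1b separates the groups at 0.439 and 0.573, and Il1a and Gm14023 rise together from 4.60 and 6.17 CPM in unlasered library 1 to 27.5 and 28.03 CPM in lasered library 3.

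Il1r2 (ENSMUSG00000026073, chromosome 1, 40074079 to 40125231), the decoy receptor gene, was near the floor in the unlasered libraries, at 0.392, 0.292 and 0.666 CPM from 8, 10 and 24 reads. In the lasered libraries it was at 13.8, 31.8, 1.96 and 0.781 CPM. Lasered libraries 1 and 2 stood far above all others, and lasered library 4 barely above unlasered library 3. The means were 0.450 ± 0.194 and 12.1 ± 14.4 CPM (SD, n = 3 and 4), 26.9-fold apart, but the difference of 2.30 ± 0.88 (SE) did not pass the test (limma adjusted p = 0.156). Without lasered libraries 1 and 2, a fit chosen after the data were seen, the difference was 0.67 (adjusted p = 0.411). DESeq2 called it (adjusted p = 0.00171) and edgeR did not (0.0662), and over the 15 alternatives the adjusted p ran from 0.00171 to 0.411. Part of the Il1r2 reads are listed jointly with Gm37347, a gene on the same strand.

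Il1r2 is known from neutrophils, monocytes and dendritic cells as well as macrophages, so marker genes of these cells are given beside it. The summed level of 9 dendritic cell markers was 24.9 to 48.3 CPM in the unlasered and 155, 189, 58.7 and 37.3 CPM in the lasered libraries, with none of the 9 at or under 3 reads in every library. Ccr7, the homing receptor of mature dendritic cells, was at 74.8 and 68.5 CPM in lasered libraries 1 and 2 against 5.34 and 3.10 CPM in lasered libraries 3 and 4. Ccl22 ran 18.1, 36.4, 8.89 and 3.53 CPM in the lasered libraries and at most 0.196 CPM in the unlasered. It was the 1 gene called of 7 tested in the list, and it too passed the filter through the lasered libraries alone. Cd209a was at most at 0.0979 CPM in the unlasered and at 7.61, 8.93, 2.87 and 0.242 CPM in the lasered libraries. It was not called (limma adjusted p = 0.0825) and also passed the filter through the lasered libraries alone. Ccl17 was at 0 CPM in the unlasered and at 0.408, 11.9, 4.53 and 0 CPM in the lasered libraries, and was not tested. The rest of the list did not all follow. Zbtb46 had means of 24.3 and 24.7 CPM in the 2 groups and Clec9a of 0.105 and 0.0669 CPM, Xcr1 was at 1.28 to 2.48 and then at 0.675 to 1.54 CPM, and Itgae was highest in lasered library 3 (11.2 CPM). Ccr2, a receptor of monocytes and some dendritic cells, was at 81.5, 128, 19.7 and 7.57 CPM in the lasered and 5.63 to 14.2 CPM in the unlasered libraries. The sums of all 9 monocyte markers overlapped between the groups. They were 171, 89.6 and 272 CPM in the unlasered and 236, 267, 78.9 and 37.0 CPM in the lasered libraries. Among the lasered libraries these sums stood in the same order as Il1r2. Of the 7 monocyte markers tested 1 was called, Nr4a1, which was lower after laser (limma adjusted p = 0.0231).

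The 11 neutrophil markers summed to 302 to 467 CPM and 373 to 438 CPM, nearly all of it Csf3r. Of the 11, 3 were at or under 3 reads in every library (Ly6g, Mpo and Retnlg). S100a8 was at 7.20, 0.0876 and 0.888 CPM in the unlasered and 1.74, 6.86, 0.283 and 0.269 CPM in the lasered libraries. S100a9 was at 3.48, 0.175 and 0 CPM and then at 0.408, 1.18, 0 and 0 CPM. Among the lasered libraries both were highest in libraries 2 and 1, as Il1r2 was, but their groups overlapped. Mmp8 was at most at 0.0555 CPM in the unlasered and at 2.63, 5.72, 1.72 and 0.889 CPM in the lasered libraries, in the same order of lasered libraries as Il1r2. Cxcr2 was at most at 0.147 CPM and then at 5.48, 5.03, 12.9 and 1.05 CPM, highest in lasered library 3, where Il1r2 was at 1.96 CPM. Cxcr2 and Mmp8 were called higher after laser, but both passed the filter through the lasered libraries alone, so that the direction of their calls was fixed by the filter. The part of other cell types in the Il1r2 level was not tested.

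**Figure D3:**
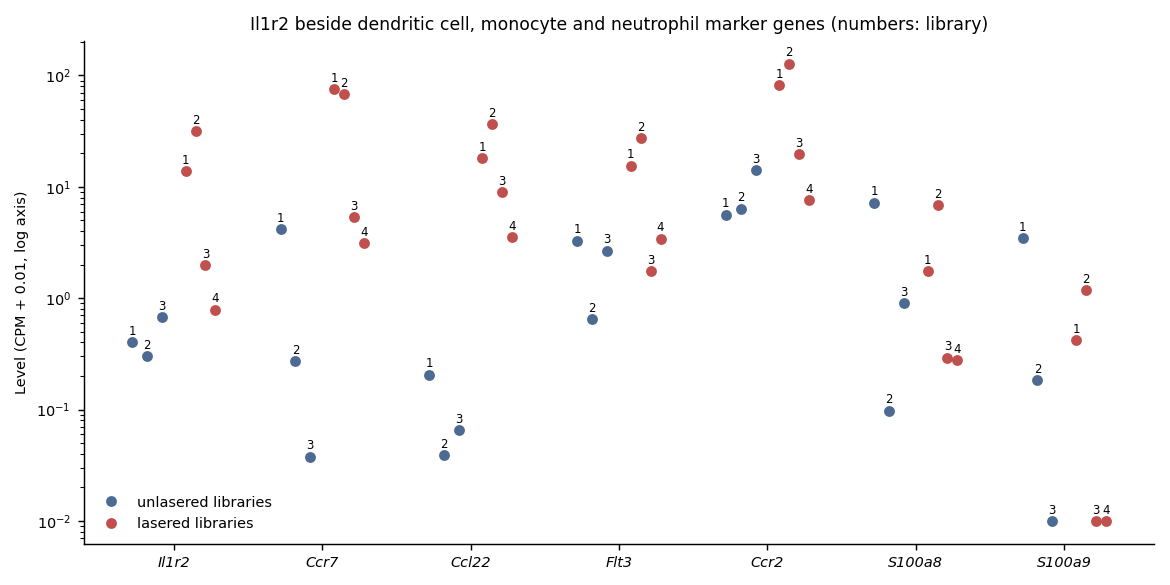
Level of Il1r2 and of 6 marker genes of dendritic cells, monocytes and neutrophils in each library, as CPM + 0.01 on a log axis. Blue points are the 3 unlasered and red points the 4 lasered libraries, with their number. Lasered libraries 1 and 2 are the 2 highest for Il1r2, Ccr7, Ccl22, Flt3 and Ccr2, and the 2 highest lasered libraries for S100a8 and S100a9. Of the markers shown, only Ccl22 does not overlap between the groups. Other genes of these lists are not shown, among them Zbtb46, Xcr1, Clec9a and Itgae. Cxcr2, Mmp8, Cd209a and Nr4a1, whose groups did not overlap, are not shown either.

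Il1rap (ENSMUSG00000022514, chromosome 16, 26581704 to 26730117), the signalling accessory chain, was at 20.0, 9.58 and 24.5 CPM in the unlasered and 21.1, 20.0, 21.6 and 12.7 CPM in the lasered libraries. The groups overlapped fully, and the difference was 0.13 ± 0.31 (SE; limma adjusted p = 0.850). The ratio of Il1r2 to Il1rap CPM, decoy to accessory chain, was 0.0196 to 0.0305 in the unlasered libraries and 0.655, 1.59, 0.0909 and 0.0613 in the lasered libraries. Il1r1, the signalling receptor for both ligands, was at 7.59 to 15.8 CPM and 9.76 to 14.1 CPM, with a difference of 0.25 ± 0.25 (SE; adjusted p = 0.607).

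Among all genes tested, 3.86% were called higher and 3.07% lower. Of the other IL-1 family receptors, 8 genes in all, 7 were tested, 4 rose and 0 fell. They were Il18rap, the accessory chain of the IL-18 receptor, Il1rl2, the IL-36 receptor, Sigirr, which restrains IL-1 receptor signalling, and Il1rapl1, a relative of Il1rap best known from synapses. Il18rap was at 4.16, 2.48 and 9.36 CPM and then at 12.3, 22.9, 25.2 and 16.9 CPM, 3.62-fold higher by the means (difference 1.78 ± 0.37, SE; limma adjusted p = 0.0285). Il18r1, its partner in the receptor, was listed at 0.0539 to 0.379 CPM in the 7 libraries and did not pass the filter. Il1rl2 was at 10.2, 2.72 and 11.9 CPM and then at 20.6, 29.0, 25.7 and 27.7 CPM (difference 1.71, adjusted p = 0.0356), in part from reads listed jointly with Gm17970.

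Il1rapl1 was at 25.8 to 31.3 CPM and then at 94.2, 93.9, 40.2 and 52.6 CPM (difference 1.17, adjusted p = 0.0478). Sigirr lay near the floor in unlasered libraries 1 and 2 (0.0490 and 0 CPM), at 1.89 CPM in unlasered library 3 and at 2.57 to 7.001 CPM in the lasered libraries (difference 1.85, adjusted p = 0.0374). It reached 1 CPM in 1 of 3 unlasered and 4 of 4 lasered libraries. The lasered libraries alone carried Sigirr through the filter, so the filter favoured the direction of its call. On the recovered reads the Sigirr call was lost with both edgeR (adjusted p = 0.208) and DESeq2 (0.270). Il1rapl2, the paralogue of Il1rapl1, was lower in every lasered library (2.59 to 3.56 CPM against 5.49 to 18.3 CPM) and just missed the test (difference -1.30, adjusted p = 0.0561). It was called lower with edgeR, with DESeq2 and without unlasered library 2. edgeR called 2 of the 7 receptors higher (Il18rap and Il1rapl1), with Il1rl2 lost at an adjusted p of 0.0527, and DESeq2 called 3 (Il18rap, Il1rl2 and Il1rapl1). The 4 calls depended on single libraries. No receptor of the list was called higher without lasered library 2 or lasered library 4. Il1rl2 alone was called higher without unlasered libraries 1 or 2, Il18rap alone without lasered library 1 and Il1rapl1 alone without lasered library 3, and the call of Il1rapl1 was the only 1 of the 4 lost without unlasered library 3. Over the 15 alternatives the highest adjusted p was 0.136 for Il18rap, 0.194 for Il1rl2, 0.270 for Sigirr and 0.245 for Il1rapl1.

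Il1r2, Il1r1, Il1rl2, Il1rl1, Il18r1 and Il18rap lie in this order on chromosome 1 between 40074079 and 40551705. Their differences were not alike. Il1rl2 and Il18rap rose, Il1r1 and Il1rl1 gave differences of 0.25 and -0.20 on the log2(CPM + 1) scale that were not called, and Il18r1 stayed below the filter.

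Nlrp3 (ENSMUSG00000032691, chromosome 11, 59541568 to 59566956), the sensor gene, was at 46.4, 40.6 and 75.6 CPM in the unlasered and 52.5, 39.0, 65.3 and 67.2 CPM in the lasered libraries. The groups overlapped, and the difference was 0.07 ± 0.25 (SE; limma adjusted p = 0.909), with a 95% interval of -0.51 to 0.64. Lasered libraries 1 and 2, the 2 highest for Il1b, were the 2 lowest lasered libraries for Nlrp3. Of the 12 other inflammasome sensor genes, 8 were tested and 0 were called by edgeR or by limma on all 7 libraries. At an unadjusted p under 0.05 there were 2 (Naip2 and Nlrp1a), against 22.7% of all genes tested. DESeq2 called these 2 higher, with a background of 13.2% in either direction. limma called Naip2 higher without unlasered library 3 and Nlrp1a higher without lasered library 3. The most abundant was Aim2, a sensor of cytosolic DNA, at 52.9 to 55.5 CPM in the unlasered and 55.0, 56.2, 67.9 and 56.6 CPM in the lasered libraries (difference 0.11, adjusted p = 0.678).

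Pycard (ENSMUSG00000030793, chromosome 7, 127989708 to 127993867), which encodes the adaptor ASC, was at 57.2, 49.6 and 49.5 CPM in the unlasered and 83.9, 83.6, 78.1 and 68.5 CPM in the lasered libraries. The lowest lasered library stood above the highest unlasered library. The means were 52.1 ± 4.44 CPM (SD, n = 3) and 78.5 ± 7.19 CPM (SD, n = 4), 1.51-fold apart, and Pycard rose by 0.58 ± 0.13 (SE; limma adjusted p = 0.0360). It was called in 8 of 15 alternative fits, with adjusted p-values of 0.000676 to 0.317. The call was lost without unlasered library 2 (0.0851) and without lasered libraries 1 (0.113), 2 (0.109) or 3 (0.0874), and held without each of the other 3. The smallest Pycard difference in any fit was 0.49.

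Casp1 (ENSMUSG00000025888, chromosome 9, 5298517 to 5307265), the protease gene, was at 80.8, 54.4 and 55.1 CPM in the unlasered and 59.9, 62.3, 73.8 and 61.9 CPM in the lasered libraries. Unlasered library 1 was the highest of all 7, and the difference was 0.04 ± 0.17 (SE; limma adjusted p = 0.911), with a 95% interval of -0.34 to 0.43. Gsdmd (ENSMUSG00000022575, chromosome 15, 75862327 to 75867408), whose product forms the pores, was at 57.9, 64.0 and 49.2 CPM in the unlasered and 73.2, 82.7, 82.1 and 76.2 CPM in the lasered libraries. Those groups did not overlap, and the means of 57.0 ± 7.46 and 78.6 ± 4.64 CPM were 1.38-fold apart. The Gsdmd difference of 0.46 ± 0.13 (SE) did not pass the test (limma adjusted p = 0.0765). DESeq2 called it higher (adjusted p = 0.0279, against up to 0.349 in the other alternatives).

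**Figure D4:**
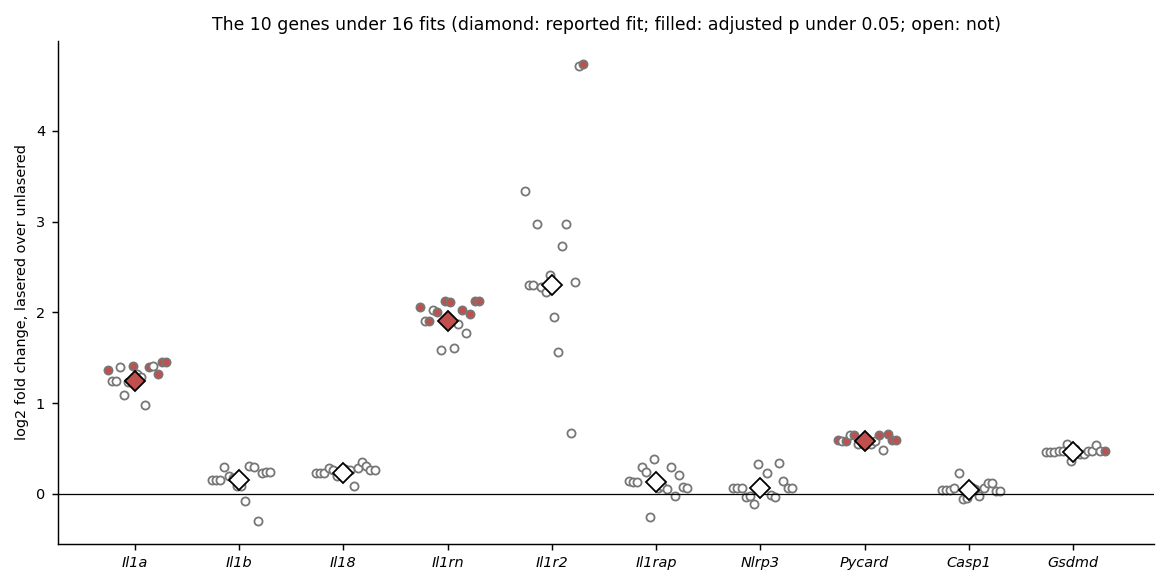
Difference between lasered and unlasered libraries (log2 fold change) of the 10 genes in 16 fits. The diamond is the reported fit, circles are the 15 alternative fits, and filled symbols have an adjusted p under 0.05. Il1a, Il1rn and Pycard lie above 0 in every fit but are filled in 6, 9 and 8 of the 15 alternatives, while Il1r2 runs from 0.67 to 4.74.

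Per kilobase of exon, the order of the 10 genes in the unlasered libraries was led by Casp1 (42.4 ± 10.1 CPM per kb, SD), Il18 (33.9 ± 1.58) and Gsdmd (24.0 ± 3.14), each above the next in every library. Pycard (13.7 ± 1.17), Nlrp3 (13.4 ± 4.63) and Il1b (10.97 ± 0.882) followed and were not separated from each other. Il1a (3.06 ± 0.797) came next, then Il1rap (1.59 ± 0.674) and Il1rn (1.12 ± 0.457), which overlapped, and Il1r2 (0.236 ± 0.102). In the lasered libraries Casp1 (43.1 ± 4.23) and Il18 (40.5 ± 8.66) overlapped, Gsdmd (33.1 ± 1.95) and Pycard (20.7 ± 1.89) followed apart from their neighbours, and Nlrp3, Il1b, Il1a and Il1r2 each overlapped the next in order, with Il1rn after them. Il1rap (1.66 ± 0.363) was the lowest, below Il1rn in every library. The length used merges all annotated exons of a gene, 3800 bases for Pycard, which spans 127989708 to 127993867. A gene whose main transcript is shorter than this length is placed too low, so the order holds for this measure only.

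Downstream of the receptor, the signalling list of 12 genes had 11 in the table (Myd88 was not analysed here). Of these 0 rose and 1 fell, against 3.86% higher and 3.07% lower of all genes tested. The gene that fell was Peli1, a ubiquitin ligase that acts on IRAK proteins. Peli1 was at 149, 127 and 152 CPM in the unlasered and 91.8, 78.3, 95.3 and 102 CPM in the lasered libraries. It fell by 0.63 on the log2(CPM + 1) scale (SE 0.14, limma adjusted p = 0.0302), and the call was lost without unlasered library 1 (0.0775) or lasered libraries 1 (0.0851), 2 (0.0865) or 3 (0.0713). At an unadjusted p under 0.05, 3 genes of the list were higher (Irak1, Irak4 and Tab2) and 2 lower (Peli1 and Traf6). For all genes tested the share was 22.7% in either direction. edgeR called Peli1 alone, DESeq2 called Peli1 and Traf6 lower, and without unlasered library 3 Irak1 and Tab2 were called higher beside Peli1 lower. Irak2 was the most abundant, at 155 to 194 CPM and 134 to 176 CPM.

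Of 11 NF-kB target genes named for IL-1 signalling, 8 were tested, 1 rose and 0 fell, against 3.86% higher and 3.07% lower of all genes. Ccl2, which attracts monocytes, was at 6.07, 5.40 and 2.97 CPM in the unlasered and 10.6, 8.22, 14.7 and 11.1 CPM in the lasered libraries (difference 1.08 ± 0.26, SE; limma adjusted p = 0.0425). At an unadjusted p under 0.05, limma gave 3 higher and 0 lower, against 22.7% of all genes in either direction. edgeR called 0 of the list (3 higher and 1 lower unadjusted), and DESeq2 called Ccl2, Nfkbiz and Zc3h12a higher and Tnfaip3 lower. Tnfaip3, a feedback inhibitor of NF-kB, was also called lower without unlasered library 1. The Ccl2 call held in 1 of the 7 fits without a library, that without unlasered library 1, and was lost in the other 6 with adjusted p-values of up to 0.105. The feedback inhibitor Nfkbia was the most abundant, at 196 to 289 CPM and 137 to 308 CPM (difference -0.17, adjusted p = 0.745). Tnf was at 5.43 to 13.02 CPM and 5.74 to 11.1 CPM, and Il6 at most at 0.589 CPM.

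None of the 12 inflammasome regulators and cell death genes was called by limma in the reported fit. At an unadjusted p under 0.05, 2 were higher (Casp8 and Trim30a) and 1 lower (Txnip), against 22.7% of all genes in either direction. edgeR called 1 of them higher (Trim30a), and DESeq2 called Casp8 and Trim30a higher and Txnip lower. limma also called Trim30a higher with median-of-ratios scaling and without lasered library 4. Txnip, whose product binds NLRP3, was at 395, 420 and 514 CPM and then at 324, 286, 279 and 358 CPM, without overlap (difference -0.50, adjusted p = 0.0655). Of the other 7 ligand genes, with Il18bp counted among them, only Il33 and Il18bp passed the filter, and 0 were called by limma, edgeR or DESeq2, with 0 at an unadjusted p under 0.05. Over the 6 lists together, 61 genes were in the table and 48 tested, of which 5 rose and 1 fell. For all genes tested the shares were 3.86% and 3.07%.

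**Figure D5:**
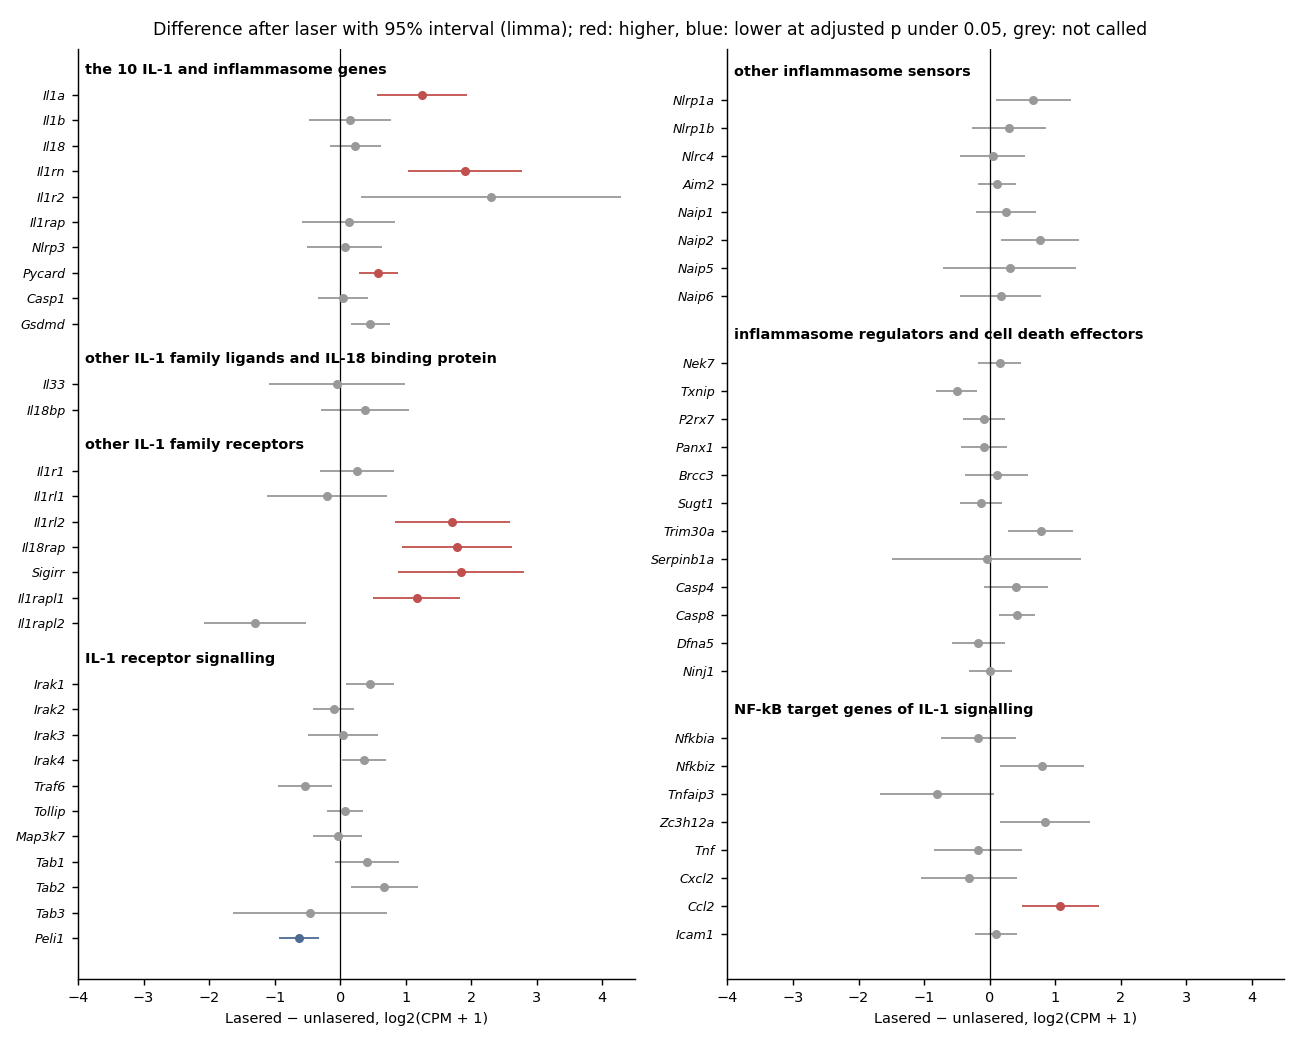
Difference after laser with its 95% interval (limma, log2(CPM + 1)) for the 10 genes and for the tested genes of the 6 pathway lists. Red marks genes called higher, blue lower and grey not called at an adjusted p under 0.05. The receptors Il1rl2, Il18rap, Sigirr and Il1rapl1 lie between 1.17 and 1.85, while the sensors lie between 0.05 and 0.77 and are all grey.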

How the data were processed

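RNA of 7 pools of sorted retinal microglia was converted to cDNA with a low-input kit that keeps no strand, and sequenced. Adapters and duplicates were removed by the authors, who mapped with bowtie2 and counted reads per gene of annotation version 90 with HTSeq (GRCm38 in the submitters' processing notes). The deposited columns are headed TPM but hold CPM, since whole reads were recovered for 100% of values within 0.0001 CPM. Reads of overlapping genes are listed jointly for 4492 genes. Positions and exonic lengths came from GENCODE M21 (GRCm38), to which 99.7% of genes were matched. The exonic length of a gene is that of all its annotated exons merged.

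Groups were taken from the titles of the samples. limma 3.58.1 (R 4.3.3, statmod 1.5.0; trend, robust) was fitted to log2(CPM + 1) over the 17496 genes that reached 1 CPM in 3 or more libraries, two-sided, with Benjamini-Hochberg adjustment over all of them. edgeR 4.0.16 and DESeq2 1.42.0 were run on the recovered reads as alternatives, and all 3 were tested on simulated data. A difference is lasered minus unlasered. Other alternatives changed the pseudocount (0.1), the filter (none, or 10 reads on average), the scaling (median-of-ratios) or the libraries (each left out), added a block for replicate numbers, or gave group medians. Python 3.11.15, pandas 2.3.3, numpy 2.4.6 and matplotlib 3.10.9 were used.

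The genes and lists were chosen with earlier results of these data known. Named were the 10 genes, list genes with an adjusted p under 0.05, the most abundant gene of each list, and the 5 genes most like Il1b. Single marker genes, overlapping partners and other list genes were named after their values were seen. Labels give separate samples, and nothing states separate animals beyond the pools, so p-values measure the spread between these libraries. Wild-type libraries were not analysed here.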

Additional observations from a re-analysis of the deposited data

Results flagged for a closer look

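In lasered library 3, Il18 (55.1 CPM) and Aim2 (67.9 CPM) stood apart from the other 3 lasered libraries, with a gap to the next library above Dixon's 95% critical value for 4 samples. Of 26 genes examined in this way 2 gave such a value, and chance gives it in about 1 of 20 groups. Neither gene was called between the groups.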

How the results depend on the processing

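The count of all genes called, 1213, was 385 without the filter, 3 with the replicate block, 2318 with DESeq2, 0 without lasered libraries 1 and 2 (2400 at an unadjusted p under 0.05) and 262 to 1406 without single libraries. The count of the 10 genes called higher, 3, was 0 without the filter, 0 with the replicate block, 5 with DESeq2, 0 without lasered libraries 1 and 2 (4 at an unadjusted p under 0.05) and 0 to 3 without single libraries, with 0 called lower in every fit. Without lasered library 2 the numbers were 262 and 0, and without lasered library 3 they were 388 and 0. The 5 genes called higher with DESeq2 included Il1r2, whose direction was fixed by the filter. Removing lasered libraries 1 and 2 was chosen after the data were seen and leaves 5 libraries. The replicate block took up lasered library 4, the only library with that number. Its differences equalled those without lasered library 4, at 1.40 for Il1a and 2.02 for Il1rn. Without the filter, 38566 genes were fitted and adjusted for, against 17496. The cause of the shifts in these counts was not tested. Median-of-ratios scaling raised the share of calls that were higher from 55.7% to 65.0%, with a median over all genes of 0.06 against -0.01.

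Differences that turned sign belonged to genes that were not called in any fit. Without lasered libraries 1 and 2, the log2 differences were -0.30 for Il1b, -0.0188 for Il1rap, -0.00722 for Il18bp, -0.74 for H2-Ob, -0.25 for Nlrc4, -0.15 for Psmb9, -0.82 for S100a11 and -0.31 for Slx4ip. Nlrp3 gave -0.0301 with the replicate block. Without single libraries the range was -0.0758 to 0.31 for Il1b, -0.25 to 0.38 for Il1rap, -0.11 to 0.33 for Nlrp3, -0.0533 to 0.23 for Casp1, -0.36 to 0.0284 for Nfkbia, -0.33 to 0.34 for H2-Ob, -0.0910 to 0.16 for Nlrc4, -0.0159 to 0.20 for Psmb9, -0.41 to 0.36 for S100a11 and -0.0501 to 0.34 for Slx4ip. The groups share replicate numbers, but libraries with the same number correlated at -0.183, -0.126 and -0.0234 in their deviations from the group means, so the numbers were not taken to pair them. Counting only reads listed for Il1r2 alone was not run, since its own and joint reads are merged. With 8 to 24 Il1r2 reads per unlasered library, depth limits its unlasered level.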
